A study of Mus musculus with 6 samples.

Results

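The transcripts of 10 factors that set and keep photoreceptor fate (Nrl, Nr2e3, Crx, Otx2, Esrrb, Neurod1, Prdm1, Casz1, Rax and Pias3) were followed in mouse retinas labelled Samd7 KO and in wild type. They were taken by symbol from a table of 49997 genes, and all 10 were present in it. Polyadenylated RNA of 6 retinas, 1 retina per library, was sequenced. The 3 retinas labelled Samd7 KO carry the genotype "Samd7 knockout (-10A)" and were taken at postnatal day 31, and the strain on which that allele was bred is not part of the label. The 3 wild-type retinas are labelled c57Bl6/j wt and were taken at postnatal day 36, and all 6 are labelled male. Genotype and age therefore cannot be told apart. No label ties the 3 retinas of a group to different mice, and p-values therefore cover the spread between retinas, which may be technical.

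Photoreceptors arise when the homeodomain factor Otx2 commits retinal precursors, and its relative Crx then raises most photoreceptor genes. The leucine zipper factor Nrl turns such a cell into a rod and raises the nuclear receptor Nr2e3, which holds cone genes down in rods. Without Nrl the cells take on a cone-like state. Prdm1 guards the young photoreceptor against the bipolar cell fate, while Samd7 is a photoreceptor protein of the Polycomb silencing machinery.

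Reads recovered from the table summed to 44.2 to 62.8 M per library. Samd7 itself had 49508 ± 7225 normalized reads (SD, n = 3) in the retinas labelled KO, against 7537 ± 1029 (SD, n = 3) in wild type. The targeted transcript was thus not lower under the KO label, and gene-level counts cannot reveal a change inside the transcript. A mutant allele that is still transcribed and labels at fault cannot be told apart from these counts, and the second would turn every direction. Directions below are for the retinas labelled Samd7 KO. Of 20277 genes tested across both groups with limma, 2432 passed an adjusted p under 0.05, which is 12%. None of the rod, cone, bipolar, amacrine and Müller glia markers was at 0 in all libraries. Lens markers summed to 6769.6 normalized reads in wild type 3 against 165 to 246 in the other 5 libraries. Pigment epithelium markers, from the tissue behind the retina, summed to 3923 to 5208 in the retinas labelled KO and to 11419.5 to 14176 in wild type.

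Of the 10 factors, 2 rose (Prdm1 and Neurod1), 2 fell (Nrl and Esrrb) and 6 did not pass the test. Among all tested genes 6.79% rose and 5.21% fell. The median log2 fold change of the 10 was -0.08, beside 0.00178 for all tested genes. All 10 passed the filter on low values, and the smallest count behind any value was 415 reads, for Prdm1. The spread between retinas was small, with an SD of 0.566% to 11.7% of the group mean. For 7 of the 10 the groups did not overlap, 3 higher and 4 lower, while 31.1% of all tested genes had groups that did not overlap (15.9% higher and 15.2% lower). A normalized read is a read count divided by the authors' size factor for that library.

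**Figure D1:**
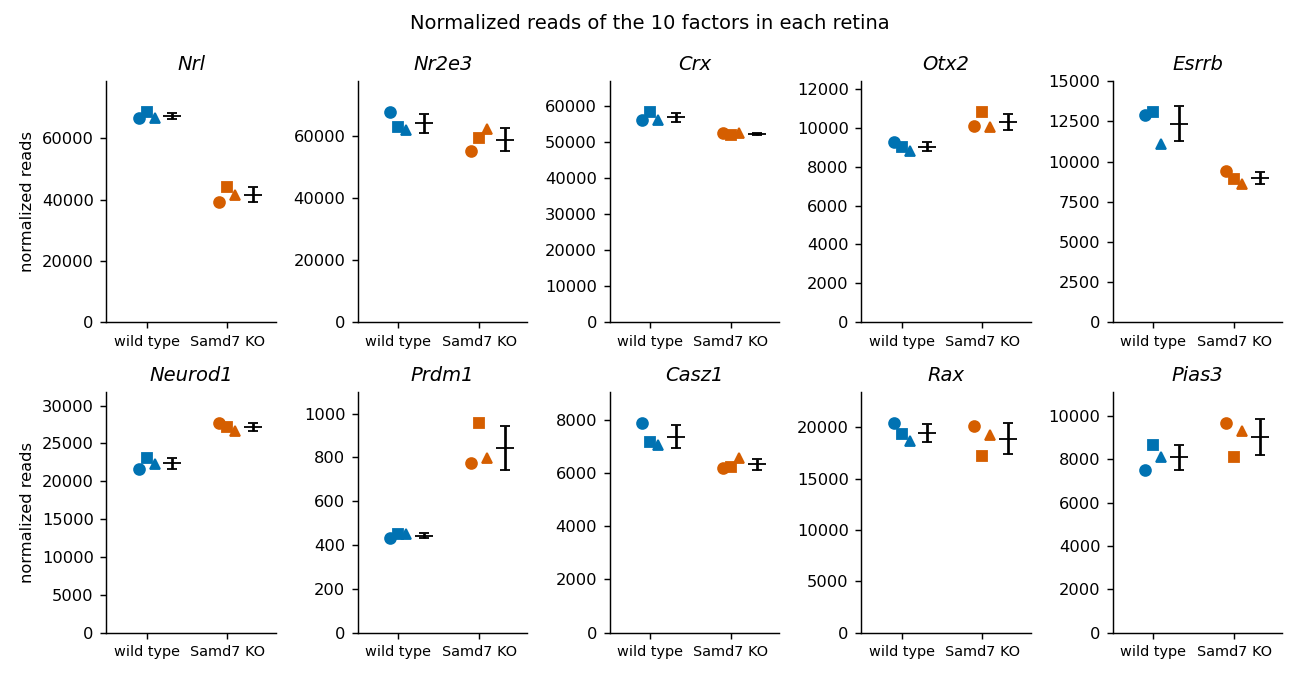
Normalized reads (vertical axis, from 0) of each of the 10 factors in the 3 wild-type (blue) and 3 Samd7 KO (orange) retinas. Circles, squares and triangles are replicates 1, 2 and 3, which no label pairs, and the black mark and bar are the mean and SD. Nrl and Prdm1 have the widest gaps between groups, and Nr2e3, Rax and Pias3 overlap.

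Sequence before RefSeq start sites is shown for the factors that passed the test and for a Crx and a Casz1 window. Crx and Casz1 did not pass, and their windows shown each hold the letters bound by Crx and Otx2 at 2 places. No other window searched held these letters at more than 1 place. The Casz1 window that is not shown held none of the letters searched for. The Prdm1 and Casz1 windows shown and the Nrl stretch lie within the gene spans given below, before start sites inside the gene. RefSeq windows of 250 bases before a start site (GRCm38.p6) were matched by symbol for 9 of the 10 factors, 15 windows in all. They were searched on both strands for TAATCC (Crx and Otx2), TGCTGA (part of the Nrl site), AAGGTCA (Esrrb and related nuclear receptors), CAGATG (Neurod1) and GAAAGT (Prdm1). Capitals mark these letters or their reverse complement, and no match overlapped a match of another motif. Windows are printed 5′ to 3′ along the gene, without bases that lie in annotated exons, or as 30 bases around a match where an exon covers it. The strand is minus for Prdm1, Crx, Nrl and Neurod1, and plus for Esrrb and Casz1.
Nrl, chr14:55524254-55524283: gctcgaggaccaCAGATGatctcagggaac
Neurod1, chr2:79456666-79456695: cgcccgcgcTCAGCATCAGCAactcggcta
Esrrb, chr12:86360867-86361116: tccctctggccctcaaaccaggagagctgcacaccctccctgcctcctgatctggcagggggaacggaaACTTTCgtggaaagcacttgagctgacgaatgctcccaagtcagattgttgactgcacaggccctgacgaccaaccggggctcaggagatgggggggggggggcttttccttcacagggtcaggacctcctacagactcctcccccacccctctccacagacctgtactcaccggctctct
Prdm1, chr10:44458749-44458998: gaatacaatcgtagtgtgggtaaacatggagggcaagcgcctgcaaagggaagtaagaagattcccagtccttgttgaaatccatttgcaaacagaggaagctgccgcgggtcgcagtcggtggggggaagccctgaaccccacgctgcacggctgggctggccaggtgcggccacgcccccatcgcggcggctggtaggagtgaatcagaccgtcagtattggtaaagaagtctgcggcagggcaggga
Crx, chr7:15879969-15880205: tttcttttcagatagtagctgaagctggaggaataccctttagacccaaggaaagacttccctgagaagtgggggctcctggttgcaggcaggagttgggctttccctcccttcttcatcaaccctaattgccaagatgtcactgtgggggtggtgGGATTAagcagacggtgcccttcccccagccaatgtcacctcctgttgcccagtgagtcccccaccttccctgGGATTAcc
Casz1, chr4:148889097-148889346: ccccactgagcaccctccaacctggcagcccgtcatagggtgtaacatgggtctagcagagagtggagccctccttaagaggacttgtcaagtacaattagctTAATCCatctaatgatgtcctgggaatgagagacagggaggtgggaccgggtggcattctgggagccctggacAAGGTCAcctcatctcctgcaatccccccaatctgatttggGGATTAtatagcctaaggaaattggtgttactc

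Among the 4 factors that passed, the Neurod1 window held TGCTGA at 2 places beside each other and GAAAGT at 160 bases before the start site, outside the stretch printed. The Nrl window held CAGATG, the first Esrrb window held GAAAGT and the Prdm1 window held none of the 5 motifs. TAATCC stood in 3 of the 15 windows (Crx with 2 matches, a Casz1 window with 2 and an Otx2 window with 1). TGCTGA stood in 2 (Neurod1 and an Otx2 window). CAGATG stood in the Nrl and an Otx2 window, and AAGGTCA in a Casz1 window. GAAAGT stood in an Esrrb, the Neurod1 and a Pias3 window. Of all 32851 RefSeq windows, 6.25% hold TAATCC, 16.1% TGCTGA, 4.08% AAGGTCA, 14.4% CAGATG and 12.3% GAAAGT. Whether any motif was more frequent in the 15 windows was not tested. A match describes these letters only.

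Nrl, the factor that sets rod identity, fell 1.62-fold. Its normalized read counts were 39274, 44032 and 41598 in the retinas labelled KO and 66768, 68497 and 66838 in wild type. Every retina labelled KO lay far below every wild-type retina, and the wild-type values lay close together. The means were 41635 ± 2379 and 67368 ± 979 (SD, n = 3 each), a log2 fold change of -0.70 (SE 0.06, 95% interval -0.83 to -0.57, limma adjusted p = 9.66e-06). This difference was larger than that of 91.1% of tested genes. Nrl lies on chromosome 14 from 55518978 to 55524981 (GRCm38, minus strand).

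Nr2e3, the rod nuclear receptor that acts downstream of Nrl and represses cone genes, did not pass. The retinas labelled KO held 55152, 59322 and 62427 normalized reads and the wild-type retinas 67715, 63045 and 61920.4. The highest KO value was above the lowest wild-type value, so the groups overlapped. The log2 fold change was -0.12 (SE 0.06, 95% interval -0.26 to 0.02, limma adjusted p = 0.244), an interval that leaves out a fall as large as that of Nrl. Nr2e3 lies on chromosome 9 from 59942771 to 59960834.

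Esrrb, an orphan nuclear receptor that rods need to survive, fell 1.38-fold. Its counts were 9388, 8900.3 and 8630.04 normalized reads in the retinas labelled KO. In wild type they were 12918, 13059.7 and 11087. The groups did not overlap, although wild type 3 was nearer to the KO retinas than the other wild-type retinas were. On the log2 scale the difference was -0.46 (SE 0.08, 95% interval -0.63 to -0.29, limma adjusted p = 0.00216). Esrrb lies on chromosome 12 from 86361117 to 86521628.

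Casz1, a zinc finger factor that keeps the nuclear organization of rods, had 6173, 6229 and 6546 normalized reads in the retinas labelled KO and 7863, 7168 and 7057 in wild type. All KO values were below all wild-type values. The difference, a log2 fold change of -0.22 (SE 0.07, 95% interval -0.38 to -0.06), did not pass after adjustment (limma adjusted p = 0.0683). It did pass in edgeR with upper-quartile factors (adjusted p = 0.0279) and in limma-voom with sample weights (adjusted p = 0.0484), and its adjusted p ranged from 0.0279 to 0.181 over 17 alternatives. Casz1 lies on chromosome 4 from 148804366 to 148954893.

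Crx, the homeodomain activator shared by rods and cones, did not pass the test. It had 52376, 51938 and 52501 normalized reads in the retinas labelled KO and 56156, 58202 and 56082 in wild type. The groups did not overlap, and the KO retinas were within an SD of 0.566% of their mean. Its log2 fold change was small, at -0.12 (SE 0.05, 95% interval -0.24 to -0.0038, limma adjusted p = 0.174). The window printed for Crx holds TAATCC, the letters that Crx itself binds, at 2 places. Crx lies on chromosome 7 from 15865947 to 15879955.

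Otx2, which acts before Crx and raises both Crx and Prdm1, had 10095, 10799 and 10036 normalized reads in the retinas labelled KO and 9257, 9030.4 and 8821 in wild type. All KO values were above all wild-type values. The log2 fold change of 0.19 (SE 0.07, 95% interval 0.05 to 0.33) did not pass (limma adjusted p = 0.0838). With scaling to total reads, which moved the median of all genes from 0.00178 to 0.0583, it did (log2 fold change 0.25, limma adjusted p = 0.0223), as it did in limma-voom with sample weights (adjusted p = 0.0221), within a range of 0.0221 to 0.300 over 17 alternatives. Otx2 is also made by bipolar cells and pigment epithelium. Bipolar markers summed to 82568 to 87885 normalized reads in the retinas labelled KO and to 82512 to 84822 in wild type. Of 18 bipolar markers 0 rose, 3 fell and 15 did not pass, while 6.79% of all tested genes rose and 5.21% fell. With a replicate block, and without KO replicate 3, wild type 2 or wild type 3, 0 fell. Rises appeared with scaling to total reads (3 higher, 1 lower), in limma-voom (3 higher, 3 lower) and without KO replicate 1 (2 higher, 3 lower). The pigment epithelium sums given above were lower in KO, and 10 of these 15 markers fell, beside 5.21% of all tested genes. That count was 6 without wild type 2, within a range of 6 to 11 over the alternatives. None of the 18 bipolar or 15 pigment epithelium markers was at 0 in all libraries, and the part of these cells in the Otx2 level was not tested. Otx2 lies on chromosome 14 from 48656781 to 48667644. The noncoding gene Otx2os1, annotated on the other strand across Otx2 exons, had 1016 ± 89.7 against 1060 ± 133 normalized reads (SD, n = 3 each).

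Neurod1, a basic helix-loop-helix factor that photoreceptors need for survival, rose 1.21-fold. Its counts were 27682, 27163 and 26636 normalized reads in the retinas labelled KO and 21694, 23123 and 22351 in wild type. The groups did not overlap and both were narrow. Its log2 fold change was 0.28 (SE 0.06, 95% interval 0.15 to 0.41, limma adjusted p = 0.00849). Without wild type 3 the fold change was again 0.28 but the adjusted p was 0.0611, the only one of 17 alternatives in which Neurod1 did not pass. Neurod1 lies on chromosome 2 from 79452637 to 79456636. Cerkl, which shares annotated exon sequence with Neurod1 on the same strand, rose from 553 ± 55.7 to 889 ± 167 normalized reads (limma adjusted p = 0.00903, SD over 3 retinas each). Reads of the shared bases could belong to either gene, and over the alternatives the adjusted p of Cerkl reached 0.0540. The strand setting of the counting is not stated in the labels.

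Prdm1, the zinc finger repressor also known as Blimp1 that holds young photoreceptors back from the bipolar fate, rose 1.90-fold. Its counts were 775, 956 and 796 normalized reads in the retinas labelled KO and 431, 449 and 449.9 in wild type. Replicate 2 was the highest of the KO retinas, and the lowest KO retina was well above all of wild type. The log2 fold change was 0.92 (SE 0.11, 95% interval 0.67 to 1.16, limma adjusted p = 1.97e-04), larger than that of 94.7% of tested genes. The 250 bases printed, which precede a start site inside the gene, held none of the motifs searched. Prdm1 is also made by some blood and immune cells. Microglia markers summed to 5533 to 6156 normalized reads in the retinas labelled KO and to 3446 to 3960 in wild type. Of these 9 markers 8 rose, beside 6.79% of all tested genes. Red blood cell markers summed to 5661 to 8293 and 1467 to 2232, with 5 of 5 higher. No marker of either list was at 0 in all libraries, and their part in the Prdm1 level was not tested. Prdm1 lies on chromosome 10 from 44437174 to 44528558.

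Rax, a homeodomain factor of the early eye field that stays on in photoreceptors and Müller glia, did not differ detectably. The retinas labelled KO held 20141, 17209.6 and 19292 normalized reads and the wild-type retinas 20410.3, 19361 and 18647, with overlapping groups. Its log2 fold change was -0.05 (SE 0.07, 95% interval -0.21 to 0.11, limma adjusted p = 0.732). That sign turned with limma-voom (0.0044) and without KO replicate 2 (0.019). It also turned with scaling to total reads (0.010), where Rax stayed below the median of all genes (0.0583). The Rax gene lies on chromosome 18. Müller glia markers summed to 188741 to 201361 normalized reads in the retinas labelled KO and to 195113 to 220875 in wild type. Of these 9 markers 3 rose (Vim, Slc1a3 and Sox9), 1 fell (Glul) and 5 did not pass, while 6.79% of all tested genes rose.

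Pias3, a SUMO ligase that modifies Nr2e3 and so strengthens the silencing of cone genes in rods, did not pass either. It had 9675, 8095 and 9308 normalized reads in the retinas labelled KO and 7520, 8647 and 8131 in wild type. KO replicate 2 lay among the wild-type retinas. The log2 fold change was 0.15 (SE 0.08, 95% interval -0.03 to 0.34, limma adjusted p = 0.269). Pias3 lies on chromosome 3 from 96696361 to 96706070.

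**Figure D2:**
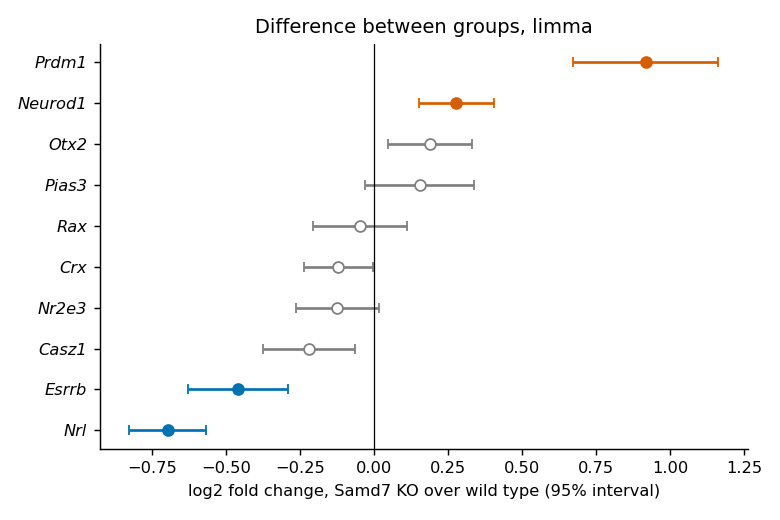
Log2 fold change of each factor (horizontal axis, Samd7 KO over wild type, 0 marks no difference) with its 95% interval from limma. Filled points passed an adjusted p under 0.05, blue for the falls of Nrl (-0.70) and Esrrb (-0.46) and orange for the rises of Neurod1 (0.28) and Prdm1 (0.92), and open grey points did not pass.

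In the authors' deposited table, made with DESeq2, 4 of the 10 had an adjusted p under 0.05 against no change, beside 14.3% of the genes that have an adjusted p there. They were Nrl (1.57e-15), Prdm1 (1.46e-11), Esrrb (1.96e-05) and Neurod1 (0.00464), which are also the 4 called here from the same libraries. Against a log2 fold change of 1, the authors' deposited table lists an adjusted p of 1 for all 10.

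Levels can be compared between genes only per length, here as normalized reads per kilobase of annotated exon. In wild type Nr2e3 was highest at 19064 ± 912 per kilobase, followed by Crx at 17979 ± 381 (SD, n = 3 each), and the libraries of this pair overlapped. Nrl came next at 11842 ± 172 and then Neurod1 at 8204 ± 262. Rax followed at 3331 ± 152. Otx2 (2141 ± 51.7), Pias3 (2067 ± 144) and Esrrb (2043 ± 182) came next and overlapped with their neighbours in that order. Casz1 had 602 ± 35.8 and Prdm1, the lowest, 79.5 ± 1.90.

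In the retinas labelled KO the order changed in a single place. Neurod1, at 9952 ± 192 per kilobase, stood above Nrl, at 7318 ± 418 (SD, n = 3 each), and the libraries of the pair did not overlap in either group. Pias3 (2304 ± 211) and Esrrb (1484 ± 63.5) overlapped in wild type and no longer did. With the length of the longest transcript in place of all exons, the Nrl and Neurod1 exchange was the same, the Nr2e3 and Crx libraries no longer overlapped, and Esrrb stood above Pias3 in wild type.

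**Figure D3:**
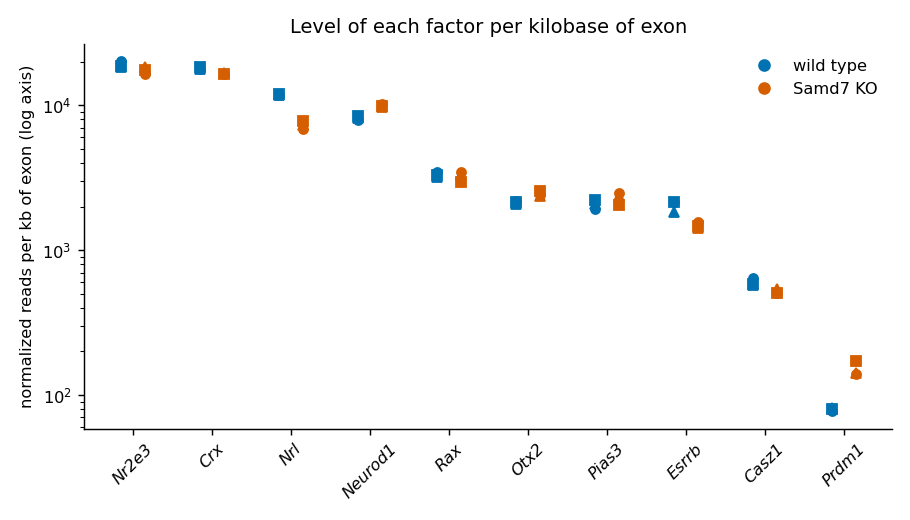
Level of each factor in normalized reads per kilobase of annotated exon (vertical axis, logarithmic) in wild type (blue) and Samd7 KO (orange), ordered by the wild-type mean, with circles, squares and triangles for replicates 1, 2 and 3. Nrl drops below the level of Neurod1 in the retinas labelled KO.

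Ratios between factors within a library do not depend on the size factor. Nrl to Nr2e3 was 0.712, 0.742 and 0.666 in the retinas labelled KO and 0.986, 1.09 and 1.08 in wild type. Nrl was lower relative to the receptor it raises in each retina labelled KO than in any wild-type retina. Nrl to Crx was 0.750, 0.848 and 0.792 against 1.19, 1.18 and 1.19, likewise without overlap. The mean ratio in KO was 0.673 of that in wild type for Nrl to Nr2e3 and 0.672 for Nrl to Crx.

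Crx to Otx2 was 5.19, 4.81 and 5.23 in the retinas labelled KO and 6.07, 6.45 and 6.36 in wild type. Prdm1 to Otx2, a repressor relative to the factor that raises it, was 0.0768, 0.0885 and 0.0793 against 0.0466, 0.0497 and 0.0510. Esrrb to Nrl was 0.239, 0.202 and 0.207 against 0.193, 0.191 and 0.166, so that Esrrb was lower by less than Nrl was. The groups did not overlap for any of the 5 ratios. Each gave p = 0.1 in a two-sided exact permutation test, the smallest value that 3 against 3 retinas allow, and an adjusted p of 0.1 over the 5.

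**Figure D4:**
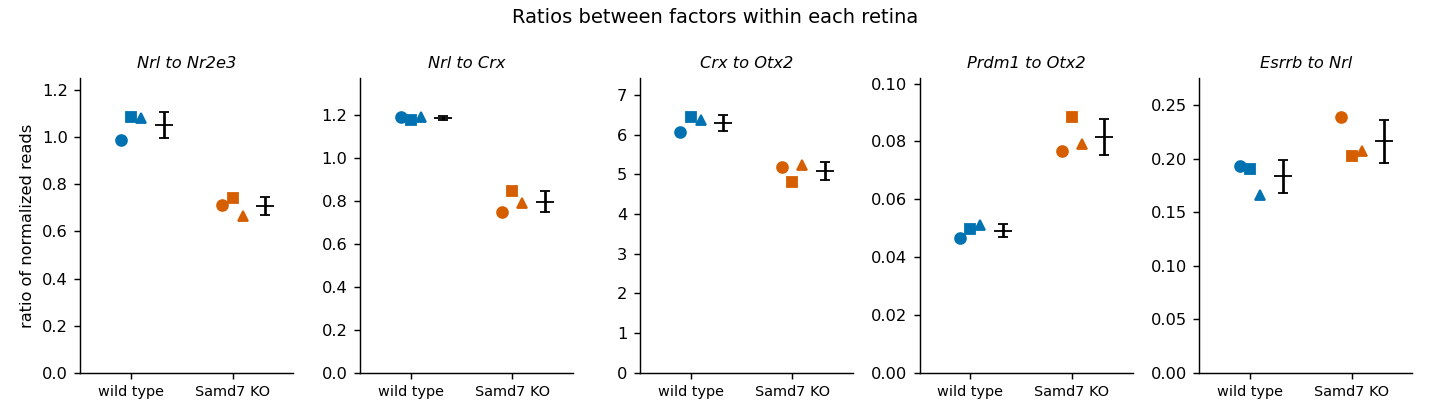
Ratio of normalized reads of pairs of factors within each retina (vertical axes, from 0), wild type in blue and Samd7 KO in orange, with circles, squares and triangles for replicates 1, 2 and 3 and the mean and SD in black. Ratios of Nrl to Nr2e3 and to Crx are lower, and Prdm1 to Otx2 is higher, in all 3 retinas labelled KO.

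Genes with the most similar profile were sought for the 4 factors that passed, by the root mean square distance of the 6 centred log2 values, among 12674 other genes with a mean of at least 100 normalized reads. Closest to Nrl were Macir (distance 0.0468), Trafd1 (0.0511) and Reep6 (0.0562), of which Reep6 encodes a rod membrane-trafficking protein. Closest to Esrrb were Cuedc1 (0.0468), Wnt11 (0.0546) and Pcp4l1 (0.0559). Nif3l1 (0.0170), Hadha (0.0239) and the glial factor Sox9 (0.0289) were closest to Neurod1. Dixdc1 (0.0257), Klhl29 (0.0423) and Cap2 (0.0601) were closest to Prdm1. Like Prdm1 each was highest in KO replicate 2, a trait that the choice by distance favours.

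Genes that Nrl, Nr2e3 and Crx are known to raise in rods mostly fell. Among 16 of them 12 fell and 4 did not pass, with 0 higher, while 5.21% of all tested genes fell. Their median log2 fold change was -0.57 beside 0.00178 for all tested genes. Guca1b, which couples calcium to cyclic GMP synthesis, fell by 1.04 on the log2 scale (limma adjusted p = 2.48e-07). The channel subunit Cngb1 fell by 0.99, the transducin subunit Gnb1 by 0.82 and Reep6 by 0.76. The arrestin gene Sag, named after its values were seen, had 528408, 576090 and 601726 normalized reads in the retinas labelled KO and 508181, 493618 and 496183 in wild type. All its KO values were above all wild-type values, and its log2 fold change of 0.19 did not pass (limma adjusted p = 0.0575). Sag made the count 1 higher in edgeR with TMM or RLE factors, with scaling to total reads, in limma-voom and without KO replicate 1, and its adjusted p ranged from 9.12e-04 to 0.359 over 17 alternatives. In bulk RNA, fewer rods and less RNA per rod cannot be told apart.

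Cone genes that Nr2e3 and Nrl hold down in rods split. Among 13 of them 7 rose, 5 did not pass and 1, Opn1mw, fell, with a median log2 fold change of 2.07. The shares of all tested genes were 6.79% higher and 5.21% lower. The 4 with the smallest adjusted p were the short-wavelength opsin Opn1sw (3.25), Ccdc136 (2.93), the transducin subunit Gngt2 (3.19) and the retinoid receptor Rxrg (2.91). None of the 10 fate factors reached 1 on that scale.

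Other regulators of photoreceptor fate and cone type were read from a list of 24. Of 23 tested, 5 rose and 1 fell, with a median log2 fold change of 0.14, and Olig2 was at 0 in all libraries. The shares among all tested genes were 6.79% higher and 5.21% lower. The 5 that rose include Samd7 itself and Rxrg, which is also on the cone list above. Rxrg rose from 1078, 867 and 983 to 7281, 7498 and 7185 normalized reads. Mef2c, an enhancer factor of muscle and neurons, fell by 2.26 on the log2 scale. Notch1, the receptor that keeps precursors from becoming photoreceptors, rose by 0.73 (limma adjusted p = 0.00244). Samd7 completed the list of named genes. The count of falling genes was 2 without KO replicate 2 and 3 in limma-voom.

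The nearest relatives of the 10 factors in sequence family were read in the same fit. Among 18 relatives 14 did not pass, 2 rose and 2 fell, with a median log2 fold change of 0.05. Over all tested genes 6.79% rose and 5.21% fell. Maf, a leucine zipper relative of Nrl, had 1946, 1322 and 1372 normalized reads in the retinas labelled KO and 170, 143 and 193 in wild type. Every KO value was far above wild type, a rise of 9.17-fold (log2 fold change 3.18, SE 0.16, limma adjusted p = 1.07e-07), opposite in direction to Nrl. The Maf transcript also occurs in other cells of the retina, whose part in the rise was not tested. Prdm8, a relative of Prdm1, rose by 0.33, and the Esrrb relative Esrra and the Pias3 relative Pias4 fell by 0.33 and 0.32 on the log2 scale. Each of these calls was lost in at least 1 of 17 alternatives. Adjusted p ranged from 0.00136 to 0.0601 for Prdm8, from 0.00376 to 0.0884 for Esrra and from 0.00602 to 0.0823 for Pias4. The count of relatives that fell was 0 without wild type 1, 2 or 3 or with a replicate block, 1 without KO replicate 3, and 3 with DESeq2, a filter at 50, upper-quartile factors or without KO replicate 1. Without wild type 3, 1 relative rose, and limma-voom with sample weights gave 4 higher and 4 lower.

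**Figure D5:**
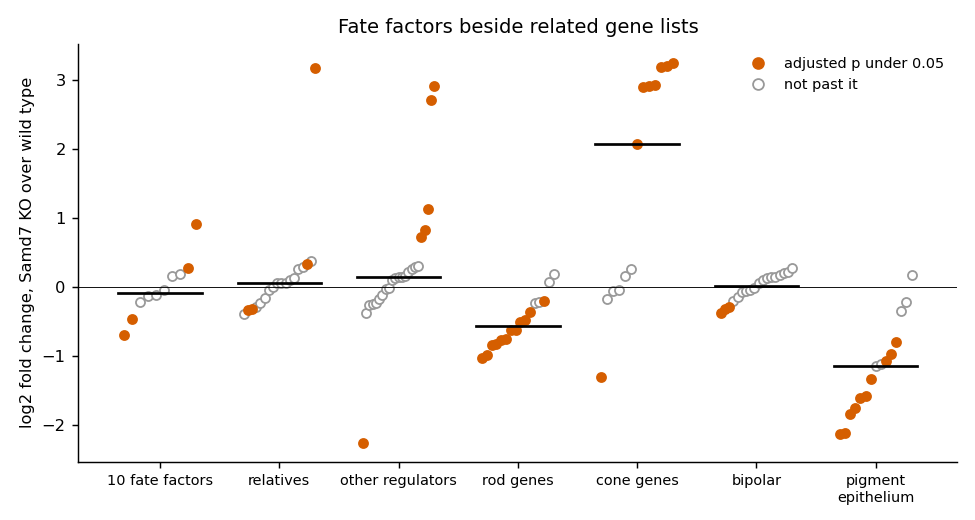
Log2 fold change of each tested gene (vertical axis, Samd7 KO over wild type) in the 10 fate factors and in 6 other lists, 1 point per gene, ordered by value within a list. Filled points passed an adjusted p under 0.05 and open points did not. Black lines are list medians, among them -0.08 for the fate factors, -0.57 for rod genes, -1.14 for pigment epithelium and 2.07 for cone genes.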

How the data were processed

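Per the submitters' processing notes, the tools included STAR 2.7.3a, HTSeq 0.12.4, cutadapt 3.0, DRAGEN and DESeq2, on GRCm38; which step each did, and whether counting used strand, was not given in the sources used here. Libraries were amplified for 15 cycles with no molecular identifiers described, per the labels' protocols. The deposited per-library signal is a read count divided by a size factor, since 100% of 166478 values above 0 were whole reads within 0.01. The authors also deposited a log2 fold change, a Wald score and p-values from DESeq2, per the file headers.

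The main test was limma-trend (limma 3.58.1, R 4.3.3) on log2(value + 1) of genes at 10 or more in at least 3 libraries, two-sided with Benjamini-Hochberg adjustment over all 20277 genes. That scale understates changes of low genes. The limma-trend test was also run on simulated counts, with changes placed only in genes above a minimum mean count, which leaves low genes unchecked. Recovered reads were tested with edgeR 4.0.16 and DESeq2 1.42.0 as alternatives, beside limma-voom, other filters, pseudocounts and scalings, single libraries left out, and a replicate block.

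The members, lists and tests were chosen with earlier results of these data known. Named genes were all members, Samd7, the 3 nearest profiles of each called member and up to 4 genes per list by adjusted p. Cerkl and Otx2os1 were added because they overlap members. Other annotated genes also overlap exons of members, among them Nudt17 (Pias3), Gm13205 (Casz1) and Gm15507 (Nr2e3). Their part in the member counts was not tested. Positions are from RefSeq, and exon lengths from GENCODE M21, both GRCm38. Between replicates, chi-square over degrees of freedom was 7.20 to 33.5, so none was the same library deposited again.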

Additional observations from a re-analysis of the deposited data

How the results depend on the processing

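Over 17 alternatives the falls of Nrl (log2 fold change -0.74 to -0.64) and Esrrb (-0.53 to -0.40) and the rise of Prdm1 (0.82 to 0.98) kept their direction and an adjusted p under 0.05. Neurod1 did so in 16 of them (0.24 to 0.34). The count of factors that rose was 1 to 2 when single libraries were left out, the 1 being without wild type 3, and the count that fell stayed at 2 there. Otx2 made it 3 higher with total-read scaling and limma-voom, and Casz1 3 lower with upper-quartile factors and limma-voom. Rax changed sign in 3 alternatives, to 0.010 with scaling to total reads (where the median of all genes was 0.0583, above Rax), 0.0044 with limma-voom and 0.019 without KO replicate 2, within -0.095 to 0.019 over the left-out libraries. The count over all genes, 2432, was 4650 with limma-voom and sample weights, and 1313 (without wild type 3) to 3247 (without KO 1) with single libraries left out, including 1497 without KO 3 and 1470 without wild type 2; the cause was not tested. The share of higher calls, 56.6%, was 71.2% with total-read scaling and 48.9% with upper-quartile factors, where the median of all genes was 0.0583 and -0.032, beside 0.00178.

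Same-numbered retinas did not deviate together (correlations -0.301, -0.226 and -0.156 across 14108 genes), while differently numbered pairs gave -0.138 to 0.361. No pairing by number was seen in these values, and a shared batch was not tested. With a replicate block 1624 genes passed, among them the same 4 factors (Neurod1 adjusted p = 0.0451). The ratios of factors kept their direction in all 8 alternatives each. All factors were read at 415 reads or more in every library.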
